A study of Mus musculus with 18 samples.

Results

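Homologous recombination mends a broken DNA strand pair by copying the intact sister molecule, and the Fanconi anemia proteins unhook crosslinks that join the strands ahead of a replication fork and hand the break that results to the same machinery. A broken end is first trimmed to single-stranded DNA, which is coated by replication protein A, and the BRCA and strand exchange proteins then pair the bared strand with the sister molecule. Many of these genes are known to be transcribed mostly in S and G2 phase, and their RNA is usually read beside a proliferation marker such as Mki67.

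The genes described here are 37 members of these pathways out of 46603 genes in the count tables of mouse lung organoids and tumoroids, chosen by name and matched by symbol through GENCODE vM21, and all 37 were found in all 18 cultures. By role they are 5 genes of the BRCA complexes (Brca1, Bard1, Palb2, Brca2, Brip1), 7 of end resection (Rbbp8, Mre11a, Rad50, Nbn, Exo1, Dna2, Blm), 7 of strand exchange (Rad51c, Rad51d, Xrcc2, Xrcc3, Rad54l, Rad54b, Rad51ap1), 8 of the Fanconi core complex and its partners (Fanca, Fancc, Fance, Fancf, Fancg, Fancl, Fancm, and the ubiquitin-conjugating enzyme Ube2t), the ID2 pair (Fancd2, Fanci), 4 nucleases or nuclease scaffolds (Slx4, Mus81, Eme1, Fan1), and 4 genes of replication protein A and polymerase epsilon (Rpa1, Rpa2, Rpa3, Pole). Brca1, the ubiquitin ligase that promotes resection and recruits Palb2 and Brca2, was given with the list as its marker.

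The study asked which lung cells can give rise to tumors driven by mutant EGFR. Donor mice carried human EGFR with the T790M and L858R changes, knocked in at Col1a1 behind a lox-stop-lox cassette and a CAG promoter. Sorted epithelial cells were infected in vitro with adenovirus expressing GFP (Ad-GFP, transgene silent) or Cre (Ad-Cre, transgene on) and grown on Transwell inserts, mixed with Matrigel and with lung mesenchymal support cells from neonatal mice, which the sample records call mesenchymal endothelial cells. Ad-Cre cultures were then instilled into the trachea of nude (Foxn1 Nu/Nu) hosts, and tumors from distal lung cells were returned to culture as tumoroids before RNA was taken. Of the tracheal cultures, the paper reports only a small nodule from club cells and no tumors from basal cells.

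The 10 organoids before transplant were single cultures. Tracheal cells sorted as NGFR-negative (club) and NGFR-positive (basal) each gave 1 Ad-GFP and 1 Ad-Cre culture, as did alveolar type 2 (AT2) cells and Sca1-positive bronchioalveolar stem cells (BASCs) of mixed morphology. The BASC alveolar and BASC bronchiolar Ad-Cre cultures, 1 each, were subcloned from BASC cultures by morphology. The 8 tumoroids were 3 of AT2 origin, 3 of mixed BASC origin, 1 bronchiolar of BASC origin, and 1 autochthonous, raised from a tumor that grew in an adult mouse given adeno-Cre through the nose and never transplanted. The 3 AT2 tumoroids also carry the sorting label NGFR-negative and were placed by their AT2 origin. The age of the donors was not given. All organoids were sequenced on HiSeq and all tumoroids on DNBSEQ, so platform and transplant cannot be told apart. Some tumoroids share a number in their titles, and whether they came from 1 mouse is not stated. AT2 tumoroids 2 and 3 share 655, and mixed BASC tumoroids 2 and 3 share 648 with the bronchiolar tumoroid.

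Depth, as the total of expected counts per culture, was 27772660 and 34507648 for club Ad-GFP and Ad-Cre and 48522427 and 52148310 for the basal pair. It was 76844492 and 97191624 for the AT2 pair and 58215741 and 62248740 for the mixed BASC pair. The BASC alveolar and bronchiolar organoids had 45022265 and 63217079. The tumoroids were shallower, with 23355938 in the autochthonous culture, 22335274, 21752273 and 15327265 in AT2 tumoroids 1 to 3, 21887446, 23000685 and 22593603 in mixed BASC tumoroids 1 to 3, and 23209041 in the bronchiolar tumoroid. The member with the fewest counts was Fancf, at 17 to 218 per culture, and Bard1 had 47 to 1247.

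Markers matched most labels. Sftpc, the surfactant gene of AT2 cells, was at 27560 and 26670 CPM (counts scaled to a common library size, with TMM factors) in the AT2 organoids and 28900 in the BASC alveolar organoid, and Scgb1a1, the club cell secretoglobin, was at 1488 in the BASC bronchiolar organoid and 2370 in the bronchiolar tumoroid. In the 2 cultures sorted as club cells Scgb1a1 was only 2.57 and 4.42 CPM, yet the 5 club markers summed to 4527 and 4243, most of it Cyp2f2 (2987 and 2667). The cultures sorted as basal had club sums of 3876 and 2591. Krt5, the keratin of basal cells, was at 2398 and 2344 CPM in the former and 2128 and 1866 in the latter. The 4 are called tracheal organoids below. AT2 tumoroid 3 stood apart: it had the lowest depth, the highest summed mesenchymal markers (10460 CPM, against 555 to 4595 in the other transplant tumoroids) and the lowest summed epithelial markers (747 CPM, against 2229 to 4871).

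The score over the 37 genes, their mean log2 CPM, was lowest where alveolar cells grew as organoids and highest in tumoroids after transplant. It was 3.19, 3.32, 3.40 and 3.33 in the tracheal organoids, and 3.44, 3.21 and 3.17 in the mixed Ad-GFP, mixed Ad-Cre and bronchiolar BASC organoids. In the alveolar organoids (AT2 Ad-GFP, AT2 Ad-Cre and BASC alveolar) it was 2.76, 2.65 and 2.78, below every other culture. Among transplant tumoroids it ran from 3.19 to 3.81 with a median of 3.65 (n = 7), and the autochthonous tumoroid was at 3.01. Against Mki67, the antigen of dividing cells, the order turned. The score minus log2 CPM of Mki67 was -3.47 to -2.84 over the 10 organoids and -4.20 to -3.46 over the 7 transplant tumoroids. Mki67 stood further above the members after transplant, and the ranges met only at the club Ad-Cre organoid (-3.47) and the bronchiolar tumoroid (-3.46).

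**Figure D1:**
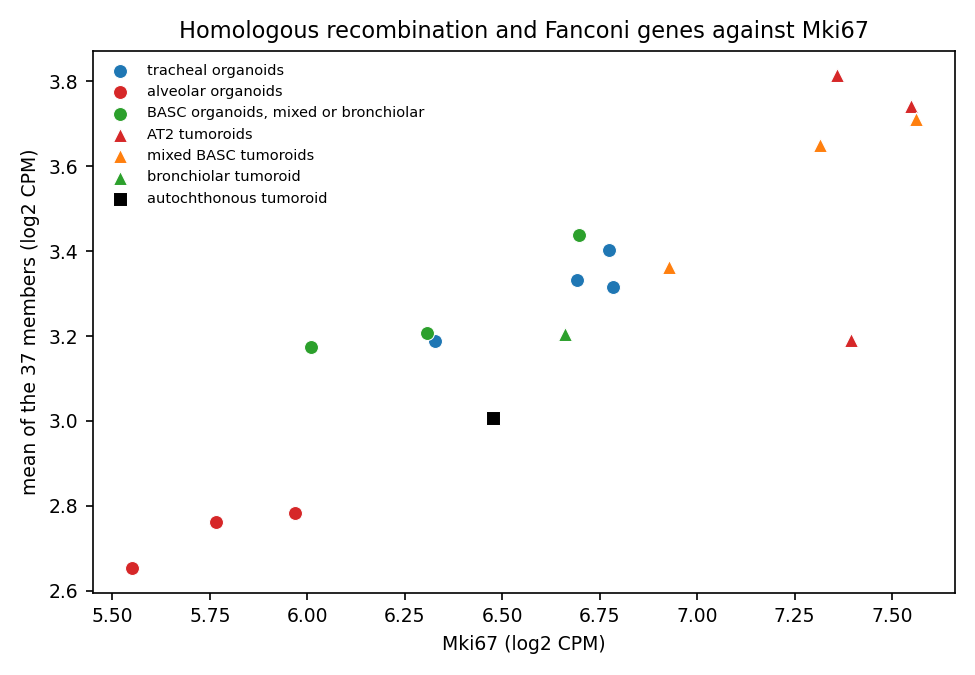
Mean log2 CPM of the 37 genes against log2 CPM of Mki67, 1 point per culture, colored by culture kind. The 3 alveolar organoids lie lowest, with scores of 2.65 to 2.78, 6 of the 7 transplant tumoroids lie furthest right, and the bronchiolar one lies among the organoids on the Mki67 axis. The scores of the 7 are 3.19 to 3.81.

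The members differed widely in abundance. By median TPM over the 18 cultures, a share of transcripts that corrects for their length, the lowest were Xrcc2 at 1.79, Brip1 at 1.82 and Fancf at 1.99. The highest were Rpa3 at 42, Fance at 30.8 and Rpa1 at 27.2. Brca1 stood at 3.20 TPM, Bard1 at 2.08, Fan1 at 3.57 and Pole at 5.83. In bulk RNA of this kind, fewer cells of a type and less RNA per cell cannot be told apart.

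In the 7 transplant tumoroids against the 4 distal Ad-Cre organoids (AT2, mixed, alveolar and bronchiolar BASC), the catalytic subunit of the leading-strand polymerase, Pole, rose by 1.93 on the log2 scale, and the core subunit Fanca, the nuclease partner Eme1 and the ID2 protein Fanci rose by 1.63 to 1.80. Fan1, a nuclease that acts on crosslinks through the ID2 pair, fell. Bard1, the obligate partner of Brca1, was not called. In the edgeR fit, 15 of 37 members were higher and 1 lower at an adjusted p under 0.05, where 10.8% of 16139 genes were higher and 8.77% lower. The members' median log2 fold change was 0.58, against -0.0016 over all genes tested, and 26 of 37 were above 0.

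Of replication protein A and polymerase epsilon, 3 of 4 were higher. Pole was 5.90, 11.6, 6.67 and 12.7 CPM in the AT2, mixed, alveolar and bronchiolar Ad-Cre organoids, and 17.2 (lowest), 34.8 (median) and 49.98 (highest) in the transplant tumoroids. Every transplant tumoroid was above these 4 organoids, and the log2 fold change was 1.93 (SE 0.32, adjusted p = 0.00314). Rpa1, the large subunit that holds single-stranded DNA, was at 38.5, 37.4, 32.2 and 34.6 CPM in the same organoids and at 64.7, 94.1 and 123 in the tumoroids. Again the groups were apart, at a log2 change of 1.41 (SE 0.20, adjusted p = 0.00154). Rpa2, the middle subunit, rose by 0.87 (SE 0.19, adjusted p = 0.0111), and Rpa3, the smallest, had 0.33 (SE 0.26) and was not called.

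In the Fanconi core and its E2 enzyme, 3 of 8 were higher, and of the ID2 pair 1 of 2. Fanca was 5.30, 5.53, 5.80 and 5.54 CPM in the organoids and 10.1, 19.4 and 23.7 in the tumoroids. Its lowest tumoroid was the bronchiolar one, still above these 4 organoids, and the log2 fold change was 1.76 (SE 0.23, adjusted p = 0.00113). Fanci, which with Fancd2 forms the clamp that the core complex ubiquitinates, was 3.63, 5.50, 5.21 and 4.52 CPM before transplant and 6.35, 14.7 and 17.8 after it. No tumoroid fell within the range of these 4 organoids, and Fanci rose by 1.63 (SE 0.28, adjusted p = 0.00377). Ube2t rose by 1.00 and Fance by 0.51, while Fancd2, at 0.93 with an adjusted p of 0.0521, lay just outside the threshold. Fancc, which holds a core subcomplex together with Fance and Fancf, was not called and pointed down (-0.48, SE 0.24).

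Of the strand exchange genes 4 of 7 were higher. Rad54b, a motor protein of strand exchange, was 2.31, 5.24, 3.92 and 5.25 CPM in the organoids and 5.90, 13.5 and 19.2 in the tumoroids. The groups did not overlap, and it rose by 1.61 (SE 0.40, adjusted p = 0.0165). Rad51c rose by 1.36, Rad54l by 1.24, and Rad51ap1 by 1.11, but Rad51d and Xrcc3 were at -0.094 and -0.11 and were not called.

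Of the end resection genes 1 of 7 was called, and roles were not tested against each other. Exo1, the long-range resection exonuclease, was at 1.44, 4.28, 1.69 and 3.45 CPM before and 4.87, 7.94 and 14.2 after. All 7 tumoroids were above these 4, by 1.66 on the log2 scale (SE 0.40, adjusted p = 0.0157). The sensors of the break ends, Nbn at -0.14, Rad50 at -0.26 and Mre11a at 0.26, were not called. Dna2, the other long-range nuclease, had 1.39 with a wide error (SE 0.49) and an adjusted p of 0.0685.

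Eme1 and Fan1 marked the opposite ends of the nucleases. Eme1, the noncatalytic partner that directs Mus81 to branched DNA, was 0.953, 1.80, 1.74 and 1.76 CPM in the organoids and 2.63, 6.33 and 6.73 in the tumoroids. Both groups were low in absolute terms but apart, at a log2 change of 1.80 (SE 0.37, adjusted p = 0.00752). Its catalytic partner Mus81 had -0.048 (SE 0.22) and was not called. Fan1 was 15.2, 6.78, 10.8 and 7.79 CPM in the AT2, mixed, alveolar and bronchiolar organoids and 3.76, 5.43 and 6.62 in the tumoroids. The highest tumoroid was just under the lowest organoid, and Fan1 fell by 0.88 on the log2 scale (SE 0.27, adjusted p = 0.041). That call held under 8 of 18 alternatives (adjusted p 0.00708 to 0.146). It was lost without the AT2 organoid (-0.61), the BASC alveolar organoid (-0.84), the bronchiolar organoid (-1.0), AT2 tumoroid 1 (-0.89) or 3 (-0.84), mixed tumoroid 1 (-0.88) or 2 (-0.85), or the bronchiolar tumoroid (-0.79), and with no filter (-0.95) or origin as a block (-0.90).

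In the BRCA complexes 2 of 5 were higher. Brca1 was 4.74, 10.7, 5.77 and 11.2 CPM in the organoids and 9.30, 17.1 and 40.8 in the tumoroids. AT2 tumoroid 1 and the bronchiolar tumoroid lay among or next to the mixed and bronchiolar organoids, so that the groups overlapped. Brca1 rose by 1.37 (SE 0.42, adjusted p = 0.0432), and an exact two-sided permutation test over the 11 cultures gave p = 0.0212. The edgeR call held under 7 of 18 alternatives (adjusted p 0.00768 to 0.237). It was lost without the AT2 organoid (1.18), the mixed (1.52), alveolar (1.25) or bronchiolar (1.54) BASC organoid, AT2 tumoroid 2 (1.38), or mixed tumoroid 1 (1.41), 2 (1.31) or 3 (1.40), and with tumoroids sharing a number summed (1.14), origin as a block (1.16) or no filter (1.3). Brip1, the helicase bound to Brca1, rose by 1.10 (SE 0.29, adjusted p = 0.0239). Bard1 was 1.61, 19.99, 2.37 and 15.1 CPM in the organoids and 2.43, 5.68 and 10.1 in the tumoroids. The organoids split into 2 low alveolar and 2 high other cultures with all tumoroids between them, and the log2 fold change was -0.70 (SE 0.64, adjusted p = 0.476). With alveolar cultures only it was 1.38, not called, and under the other 17 alternatives it was below 0. The difference between Bard1 and Brca1 was not tested.

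**Figure D2:**
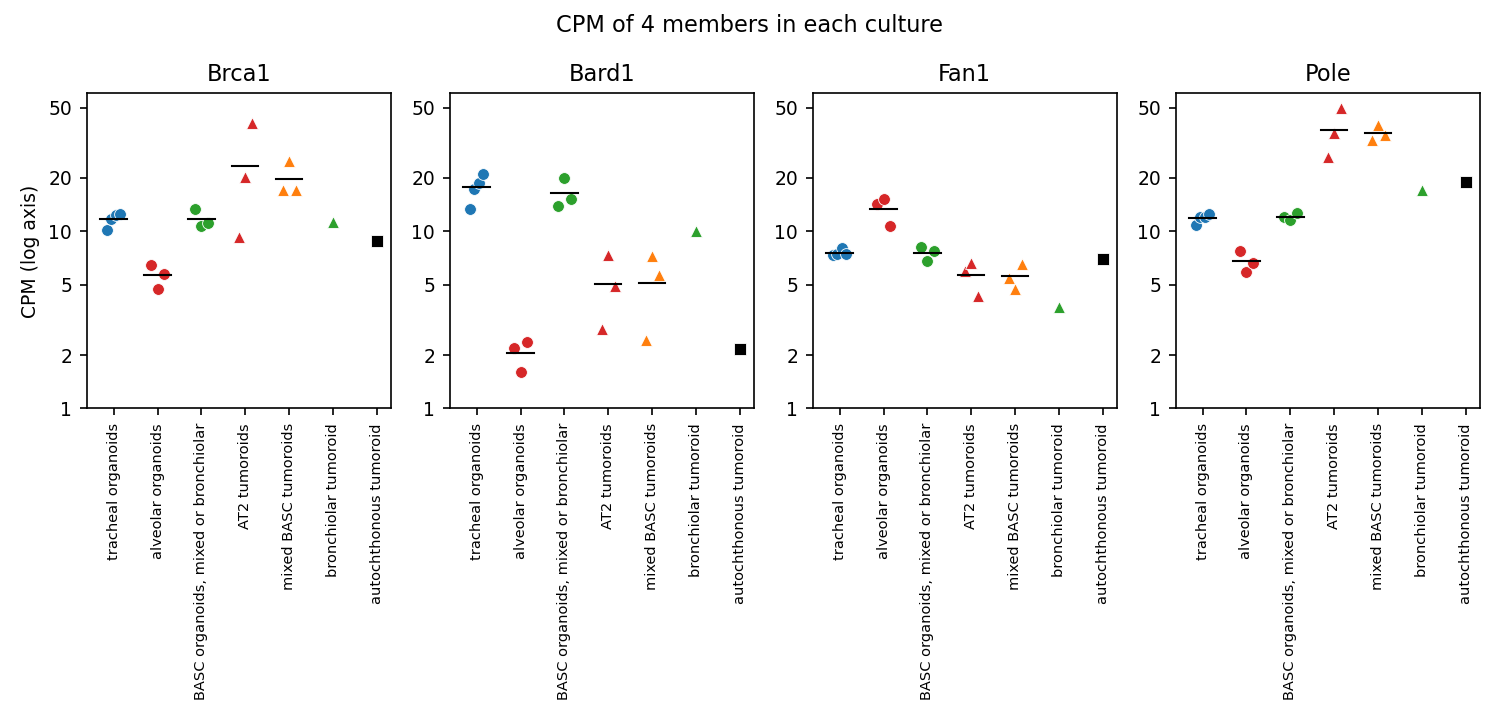
CPM of Brca1, Bard1, Fan1 and Pole on a log axis in each culture, arranged by culture kind, with bars at the mean of kinds with more than 1 culture. Bard1 is at 1.61 to 2.37 CPM in the alveolar organoids and at 13.3 to 21.2 in the tracheal ones, and Pole is at 17.2 to 49.98 in the transplant tumoroids against 5.90 to 12.7 in the distal Ad-Cre organoids.

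The 21 members not called ran from Bard1 at -0.70 to Dna2 at 1.39, among them Blm at 0.69, Fancm and Fancg at 0.58, Palb2 at 0.43, Xrcc2 at 0.29, Brca2 at 0.22, Slx4 at 0.028, Rbbp8 at -0.028, Fancl at -0.034 and Fancf at -0.065. Fanca, Fanci, Pole and Rpa1 were the members called under all 18 alternatives. Eme1 and Rpa2 were called under 17, Exo1 and Rad54b under 16, Rad54l under 15, Brip1 under 14, Rad51c under 8, Ube2t under 7, and Fance and Rad51ap1 under 6. With the tissue of origin as a block, which leaves only origins present at both stages to carry the difference, 4 members were called and the whole fit fell to 1180 genes from 3167. The count of members also dropped to 6 without the BASC alveolar organoid, 8 without the AT2 Ad-Cre organoid, 10 without the BASC bronchiolar organoid (1973 genes) and 10 without mixed BASC tumoroid 2. Without AT2 tumoroid 3, the culture of high mesenchymal and low epithelial markers, 14 members were called and Brca1 had 1.09. That culture held the highest transplant tumoroid value of Pole, Rpa1, Fanci, Rad54b, Exo1 and Brca1, but not of Fanca or Eme1.

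The 7 mesenchymal markers, led by Col1a1, summed to 7552, 4493, 4295 and 3244 CPM in the distal Ad-Cre organoids and to 555, 1969 and 10460 (lowest, median, highest) in the transplant tumoroids. The 4 epithelial markers summed to 1661, 4740, 1899 and 5851 CPM before and to 747, 3257 and 4871 after. The 5 basal markers summed to 17.9, 2094, 174 and 1028 CPM in the AT2, mixed, alveolar and bronchiolar organoids and to 2.30, 13.8 and 1735 in the tumoroids. The 5 club markers went from 616, 3587, 730 and 3629 to 59.2, 514 and 5002, and the 4 ciliated markers from 17.4, 267, 65.3 and 157 to 6.43, 18.01 and 224. For the 8 alveolar markers the sums were 45000, 2666, 48500 and 2476 before and 6508, 34420 and 90910 after. All of these sums overlapped between the groups, and their part in the members' changes was not tested. Endothelial markers (5 genes) summed to 0.68 to 0.89 CPM before and to 0.54, 2.67 and 6.27 after. Of these, Emcn was at 0 in all 4 organoids and Cldn5 at 0 in all 7 tumoroids. Immune markers (4 genes, mostly Cd68) summed to 15.3 to 32.6 CPM before and to 7.64, 10.5 and 23.9 after. The part of these lists was not tested either.

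The autochthonous tumoroid was sequenced on the same platform as the transplant tumoroids but was never transplanted, and here it is set beside the 4 distal Ad-Cre organoids. Pole was 19.1 CPM, above their highest of 12.7. Fanca was 14.4 (organoids up to 5.80), Rpa1 77.2 (up to 38.5), Fanci 11.1 (up to 5.50), Rad54b 5.47 (up to 5.25) and Eme1 2.21 (up to 1.80). Exo1 at 2.90 and Brca1 at 8.83 CPM were within the range of the 4. Mki67 of the autochthonous tumoroid, at 88.9 CPM, was also above the 4 (up to 79.1). With 1 culture the differences were not tested, and the parts of platform and of Mki67 were not tested either.

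Mki67 itself rose with transplant. It was 46.8, 79.1, 62.6 and 64.3 CPM in the distal Ad-Cre organoids and 101, 164 and 189 in the tumoroids. No cultures overlapped, the log2 fold change was 1.35 (SE 0.21, adjusted p = 0.0022), and the exact permutation test gave p = 0.00303, the smallest these group sizes allow. Of the members called, Pole, Eme1, Fanca, Exo1, Fanci, Rad54b and Rpa1 had larger log2 fold changes than Mki67 in the same 11 cultures, and Brca1 and Rad51c had about that of Mki67. In means of log2 CPM Brca1 differed by 1.25 and Mki67 by 1.29.

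With Mki67 of each culture as a covariate, no member was called above or below what Mki67 would give. edgeR called 0 of 37 members and 6 of 16138 genes (0.0372%), and 0 members had an unadjusted p under 0.05. DESeq2 called 0 members, with 1 at an unadjusted p under 0.05. The 3 members of smallest p were Fanca at 1.00 (SE 0.50, adjusted p = 0.817), Rpa1 at 0.85 (SE 0.45, adjusted p = 0.83) and Xrcc2 at -1.25 (SE 0.80, adjusted p = 0.863), none of them called, and Brca1 was at -0.49 (SE 0.74). Since Mki67 did not overlap between the groups, stage and Mki67 were nearly the same variable, and the median SE of the members grew from 0.27 to 0.55. Leaving out single cultures moved the number of genes called between 0 (without mixed BASC tumoroid 2) and 18 (without the AT2 organoid).

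Read as a ratio to Mki67, with the slope fixed at 1 (an alternative chosen after seeing the data), the median over all genes shifted to -1.33, and 1.08% of genes were higher and 70.2% lower. The members' median was -0.81, and 10 of 37 stood above 0 while 20 were called lower and 0 higher. Pole was furthest above Mki67 at 0.58, not called, followed by Eme1 at 0.46, Fanca at 0.39 and Exo1 at 0.36. Brca1 was at 0.017 (SE 0.34) and was not called. At the other end Fan1 was at -2.31 (SE 0.37) and Bard1 at -1.80 (SE 0.62), both called and both below the median of all genes.

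Lineage separated the organoids before transplant, and Bard1 most of all. Against the 4 tracheal organoids, Bard1 fell by 3.07 on the log2 scale and Brca1 by 1.00 in the 3 alveolar organoids, and most genes of resection and strand exchange were lower with them. Fan1, the fork translocase Fancm and the nuclease Mus81 were higher. edgeR called 21 of 37 members lower and 3 higher, where 31.4% of 18754 genes were lower and 29.5% higher. The median log2 fold change of the members was -0.59, against -0.061 over all genes.

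All 5 genes of the BRCA complexes were lower in alveolar organoids. Bard1 was 13.3, 17.4, 18.8 and 21.2 CPM in the club Ad-GFP, club Ad-Cre, basal Ad-GFP and basal Ad-Cre organoids and 2.18, 1.61 and 2.37 in the AT2 Ad-GFP, AT2 Ad-Cre and BASC alveolar organoids. It was low in every alveolar culture, whichever cell it was sorted from and whichever virus it received, and high in every other organoid (log2 fold change -3.07, SE 0.22, adjusted p = 5.06e-06). Brca1 was 10.2, 11.8, 12.3 and 12.5 CPM in the tracheal organoids and 6.48, 4.74 and 5.77 in the alveolar ones. These groups did not overlap either (-1.004, SE 0.15, adjusted p = 0.000369), and the exact permutation p of 0.0286 is the smallest that 4 against 3 allows. The tracheal cultures are 2 pairs of a divided sort, and the AT2 and mixed BASC cultures 1 pair each. The BASC alveolar and bronchiolar cultures were subcloned from BASC cultures, so both the alveolar and the BASC group hold cultures of BASC descent. The lineage tests counted partners and subclones as separate cultures. How far these depend on each other within a lineage was not measured, and a test of lineage with pairs joined was not run. Palb2, which bridges Brca1 and Brca2, fell by 1.02, Brca2 by 0.77 and Brip1 by 0.61.

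Resection followed, with 5 of 7 lower. Exo1 was 3.51, 5.04, 5.24 and 4.70 CPM in the tracheal and 2.19, 1.44 and 1.69 in the alveolar organoids. The alveolar cultures were all lower (-1.34, SE 0.22, adjusted p = 0.000558). Blm, the helicase that unwinds ends and dissolves crossed strands, fell by 0.82, and the sensors Rad50 and Mre11a fell by 0.71 and 0.59. Nbn, the third protein of that sensor, had -0.032 (SE 0.087) and was not called. Strand exchange also had 5 of 7 lower. Rad51ap1 was 5.10, 6.51, 7.41 and 6.21 CPM in the tracheal and 2.68, 1.85 and 2.46 in the alveolar organoids. No culture crossed over (-1.40, SE 0.27, adjusted p = 0.00147), and Rad54b and Rad54l fell by 1.00 and 0.95.

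The Fanconi genes were mixed. In the core and E2 group 1 of 8 was higher and 3 lower, and neither ID2 gene was called. Fancm was 7.53, 7.80, 7.41 and 7.32 CPM in the tracheal and 12.3, 11 and 10.04 in the alveolar organoids. It was high in all 3 alveolar cultures (0.60, SE 0.11, adjusted p = 0.00113), while Ube2t, the E2 enzyme of the complex, fell by 0.96 and its E3 partner Fancl by 0.73. Among nucleases, Fan1 was 7.39, 7.47, 8.01 and 7.47 CPM in the tracheal and 14.3, 15.2 and 10.8 in the alveolar organoids. The 2 AT2 cultures were the highest of all 18 and the BASC alveolar culture came next (0.86, SE 0.14, adjusted p = 0.00053). Mus81 was 16.8, 14.4, 15.4 and 14.4 against 17.9, 23.4 and 23.8 CPM. The AT2 Ad-GFP culture was the closest to the tracheal ones (0.55, SE 0.11, adjusted p = 0.00253), and Eme1 fell by 0.70. Pole fell by 0.78 and Rpa3 by 0.45. The 13 members not called ran from Dna2 at -0.70 to Fancf at 0.15, among them Fanci at -0.59, Xrcc2 at -0.49, Xrcc3 at -0.39, Fancg at -0.25, Fance at -0.21, Fancd2 at -0.20, Fanca at -0.10, Rpa2 at -0.084, Rpa1 at -0.041 and Slx4 at 0.015.

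The same alveolar cultures, set against the mixed and bronchiolar BASC organoids in place of the tracheal ones, gave 19 members lower and 3 higher (27.6% of genes lower, 25.5% higher), with a median of -0.53 against -0.051 over all genes. The 3 higher members were again Fan1, Fancm and Mus81. Bard1 was 13.9, 19.99 and 15.1 CPM in the mixed Ad-GFP, mixed Ad-Cre and bronchiolar BASC organoids, all far above the alveolar cultures (-2.94, SE 0.23, adjusted p = 1.47e-05). Brca1 was 13.4, 10.7 and 11.2 CPM there, again with no overlap (-0.996, SE 0.16, adjusted p = 0.000731). Rad51ap1 had -1.18 (SE 0.28, adjusted p = 0.00584), Exo1 -1.13 (SE 0.23, adjusted p = 0.0026), Fan1 0.88 (SE 0.15, adjusted p = 0.00104), Fancm 0.49 (SE 0.12, adjusted p = 0.00685) and Mus81 0.47 (SE 0.12, adjusted p = 0.0103). Both comparisons share the alveolar cultures and 1 fit, so they are not independent. Of the members called, 20 of 24 against tracheal and 18 of 22 against BASC organoids were called under all 14 alternatives.

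Sequencing lanes, read from the file names, separated the tracheal organoids (1 lane) from the rest, so that lane and trachea cannot be told apart. Alveolar and BASC organoids shared lanes. In one lane Bard1 was 2.18 CPM in the AT2 Ad-GFP organoid against 13.9 and 19.99 in the mixed BASC pair, and in the other it was 1.61 and 2.37 in the AT2 Ad-Cre and BASC alveolar organoids against 15.1 in the bronchiolar one. Brca1 was 6.48 against 13.4 and 10.7 in the first lane and 4.74 and 5.77 against 11.2 in the second. Within both lanes the alveolar cultures were the low ones.

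The 7 mesenchymal markers, all detected in every culture, summed to 2235, 2091, 2084 and 2109 CPM in the tracheal organoids, 7782, 7552 and 4295 in the alveolar ones, and 1993, 4493 and 3244 in the mixed Ad-GFP, mixed Ad-Cre and bronchiolar BASC organoids, with Col1a1 or Col3a1 the most abundant. The 5 endothelial markers summed to at most 0.936 CPM in any organoid. The part of mesenchymal RNA in the lineage differences was not tested. Other marker lists also set the alveolar organoids apart. The 5 basal markers summed to 3356 to 4298 CPM in the tracheal, 1028 to 3078 in the mixed and bronchiolar BASC and 9.80 to 174 in the alveolar cultures, Krt5 being the most abundant in all but the AT2 Ad-GFP culture. In the 3 alveolar organoids against the other 7, club markers summed to 308 to 730 against 2591 to 5385 CPM, ciliated markers to 10.6 to 65.3 against 157 to 1105, epithelial markers to 1415 to 1899 against 3288 to 5851, and immune markers, nearly all Cd68, to 15.3 to 15.5 against 19.1 to 65.5. The part of none of them was tested.

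**Figure D3:**
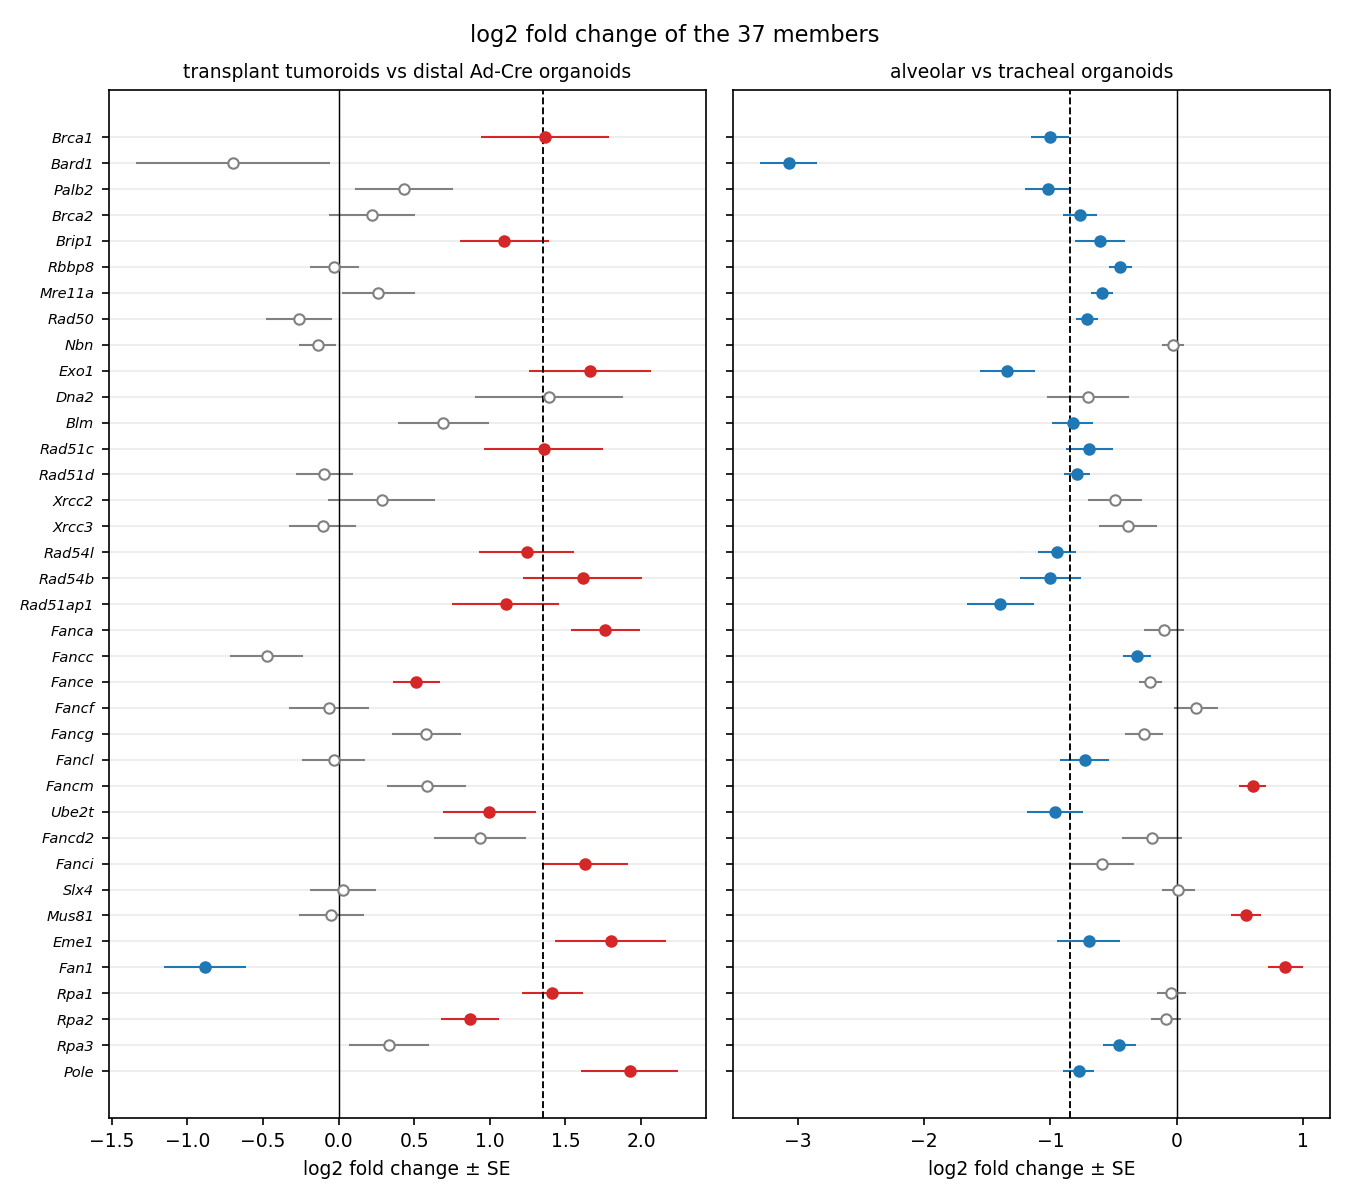
Log2 fold change with its standard error for each of the 37 genes, by role, in transplant tumoroids against distal Ad-Cre organoids and in alveolar against tracheal organoids; filled points passed the edgeR test (red higher, blue lower), open points did not, and the dashed line is Mki67. Bard1 lies furthest left among the lineage differences at -3.07, beyond Mki67 at -0.84, and Pole furthest right after transplant at 1.93, beyond Mki67 at 1.35.

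Mki67 also differed by lineage, at 80.3, 110, 109 and 103 CPM in the tracheal, 54.4, 46.8 and 62.6 in the alveolar, and 104, 79.1 and 64.3 in the mixed Ad-GFP, mixed Ad-Cre and bronchiolar BASC organoids. It fell by 0.84 in alveolar against tracheal organoids (SE 0.18, adjusted p = 0.00316; exact permutation p = 0.0286) and by 0.54 against the BASC organoids (SE 0.19, adjusted p = 0.0399). The exact test on the latter gave p = 0.1, the smallest that 3 against 3 allows.

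Once Mki67 was a covariate, Bard1 was still called lower, and fewer of the other members were called. Mki67 of the alveolar organoids overlapped neither the tracheal nor the mixed and bronchiolar BASC organoids. The covariate therefore cannot fully separate lineage from Mki67. With Mki67 as a covariate, 5 of 37 members were lower and 0 higher in alveolar against tracheal organoids (12.7% of 18753 genes lower, 15.9% higher), and the median was -0.14 against -0.012. Bard1 had -2.70 (SE 0.37, adjusted p = 0.00136), and it was the only member called under all 15 alternatives. Leaving out 1 culture gave it -3.07 (without club Ad-GFP) to -2.05 (without mixed BASC Ad-GFP). The median SE of the members grew from 0.15 to 0.24, and several members lost the call at a similar log2 fold change, Fan1 at 0.81 (adjusted p = 0.0505), Fancm at 0.51 (0.0885), Mus81 at 0.48 (0.123), Blm at -0.67 (0.129) and Pole at -0.64 (0.054). Others lost it at a smaller change, among them Rad51ap1 at -0.36 (adjusted p = 0.338), Exo1 at -0.72 (0.138) and Rad54b at -0.13 (0.756). Fancl was at -0.0083 (0.982), and Brip1 turned to 0.080 (0.851). Rad51d, also of strand exchange, had -0.80 (SE 0.19, adjusted p = 0.0128) after 24.6, 20.8, 22.3 and 22.2 CPM in the tracheal and 12.7, 13.6 and 11.7 in the alveolar organoids, the lower group throughout. Rad50 had -0.67 (SE 0.17, adjusted p = 0.0179), Fancc -0.58 (SE 0.17, adjusted p = 0.0333) and Mre11a -0.56 (SE 0.16, adjusted p = 0.0298). Brca1 had -0.56 (SE 0.22, adjusted p = 0.0837) and passed only without the AT2 Ad-GFP organoid (-0.67) or with 15 mitotic genes in place of Mki67 (-0.63), with an adjusted p of 0.0353 to 0.243 over its alternatives.

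Single cultures decided most of those calls. The count of 5 fell to 2 without the club Ad-GFP or the mixed BASC Ad-GFP organoid, and to 3 without the basal Ad-GFP, BASC alveolar or BASC bronchiolar organoid. Rad51d was lost without the club Ad-GFP (-0.61) or BASC alveolar organoid (-0.70), and Rad50 without the mixed BASC Ad-GFP (-0.54) or bronchiolar organoid (-0.45). Mre11a was lost without any of club Ad-GFP (-0.65), basal Ad-GFP (-0.56), mixed BASC Ad-GFP (-0.53), BASC alveolar (-0.57) and bronchiolar (-0.41). Fancc was lost without any of 8 cultures, namely club Ad-GFP (-0.55), club Ad-Cre (-0.58), basal Ad-GFP (-0.58), basal Ad-Cre (-0.58), AT2 Ad-GFP (-0.57), AT2 Ad-Cre (-0.57), mixed BASC Ad-GFP (-0.52) and BASC alveolar (-0.60).

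Against the mixed and bronchiolar BASC organoids with the same covariate, 12 members were lower and 1 higher (18.1% of genes lower, 19.4% higher), with a median of -0.28 against -0.011. Bard1 had -2.73 (SE 0.27, adjusted p = 0.000183), Blm -0.88 (SE 0.22, adjusted p = 0.0143), Palb2 -0.81 (SE 0.23, adjusted p = 0.0214), Exo1 -0.75 (SE 0.25, adjusted p = 0.0423) and Brca1 -0.72 (SE 0.16, adjusted p = 0.00902). Fan1 was the member called higher, at 0.84 (SE 0.21, adjusted p = 0.0135). Fancc had -0.54 (SE 0.13, adjusted p = 0.0121), and it and Bard1 were called under all 15 alternatives. Blm was 11.4, 12.9 and 13.2 CPM in the BASC organoids and 7.49, 4.81 and 6.15 in the alveolar ones, and Palb2 was 4.36, 4.23 and 4.24 against 1.82, 2.02 and 2.32. Both were low in all 3 alveolar cultures. Without the BASC bronchiolar organoid 3 members and 3842 genes of 7025 were called, and Blm (-0.68), Palb2 (-0.64), Exo1 (-0.75), Brca1 (-0.57) and Fan1 (0.81) were lost. Exo1 was also lost without either Ad-Cre tracheal organoid (club -0.76, basal -0.75), the basal Ad-GFP (-0.77), AT2 Ad-Cre (-0.73), mixed BASC Ad-Cre (-0.69) or BASC alveolar organoid (-0.58), and Palb2 without the AT2 Ad-GFP organoid (-0.73).

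Between mixed and bronchiolar BASC organoids and tracheal ones, no member was called. edgeR called 0 of 37 members, with 2 at an unadjusted p under 0.05, and DESeq2 called 0; 272 of 18754 genes, 1.45%, were called by edgeR. The members' median was -0.043 against 0.010 over all genes. The 3 members of smallest p, none called, were Rad51d at -0.26 (SE 0.10, adjusted p = 0.21), Rad51c at -0.44 (SE 0.18, adjusted p = 0.245) and Rpa3 at 0.21 (SE 0.13, adjusted p = 0.418). Rad51d was 24.6, 20.8, 22.3 and 22.2 CPM in the tracheal and 20.7, 18.3 and 17.9 in the BASC organoids, the latter all below the former. It was called without the mixed BASC Ad-GFP organoid (-0.34). Brca1 was at -0.0085 (SE 0.15). Counts of all genes in this comparison ran from 1 without the basal Ad-GFP organoid to 3929 without the mixed BASC Ad-GFP organoid.

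With Mki67 as a covariate the same pair of groups gave 0 members called by edgeR and by DESeq2, 4 at an unadjusted p under 0.05, and 11 genes (0.0587%). The members' median was 0.10 against 0.030. Brip1 had 0.41 (SE 0.17, adjusted p = 0.383), Rpa3 0.34 (SE 0.14, adjusted p = 0.395), Rad51d -0.27 (SE 0.11, adjusted p = 0.41) and Brca1 0.16 (SE 0.14, adjusted p = 0.697). The count of genes lay between 0 (without club Ad-GFP or basal Ad-Cre) and 198 (without mixed BASC Ad-GFP).

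Switching on mutant EGFR in culture was not followed by a called change in any of these genes. Each of 4 populations gave an Ad-GFP and an Ad-Cre culture, and edgeR with the population as a block called 0 of 37 members, with 0 members at an unadjusted p under 0.05, and 0 of 17749 genes (0%; 350 genes at an unadjusted p under 0.05). DESeq2 called 0 members and 5 genes. Without the replicate block edgeR called 0 genes, with 53 at an unadjusted p under 0.05. The median of the members was -0.063 against -0.0054 over all genes, and 9 of 37 were above 0. These signs were not tested.

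The Ad-Cre minus Ad-GFP difference of Brca1 in log2 CPM was 0.22 for club and 0.017 for basal cells, and -0.45 for AT2 and -0.32 for mixed BASC cells. For Mki67 it was 0.46, -0.082, -0.22 and -0.39 in the same pairs. The fitted change was -0.15 (SE 0.15, adjusted p = 0.994), and the difference between trachea and distal lung was not tested. Bard1 had 0.39 and 0.17 in the tracheal pairs, -0.43 in AT2 and 0.52 in mixed BASC cells. The AT2 partners were sequenced in different lanes, while the partners of each other pair shared a lane. The 3 members of smallest p, none called, were Fanci at -0.33 (SE 0.18), Fancl at -0.24 (SE 0.14) and Dna2 at -0.40 (SE 0.26), each with an adjusted p of 0.994. Dna2 was 9.77 CPM in the mixed BASC Ad-GFP organoid and 4.20 in its Ad-Cre partner, and no other pair differed as much. Mki67 had -0.070 (SE 0.15), and the exact paired test gave p = 0.75 where 0.125 is the smallest possible.

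After transplant, no member was called between tumoroids of different origin. Between 3 AT2 and 3 mixed BASC tumoroids edgeR called 0 of 37 members, 0 of them at an unadjusted p under 0.05, and 0 of 15470 genes (0%; 144 at an unadjusted p under 0.05), and DESeq2 called 0 members and 7 genes. The medians of the members and of all genes were both 0.042. Brca1 was 9.30, 20.4 and 40.8 CPM in AT2 and 17.1, 24.9 and 17.0 in mixed BASC tumoroids, so the AT2 values enclosed the others (0.28, SE 0.54, adjusted p = 1). That sign turned without AT2 tumoroid 3, to -0.40. Bard1, so different between AT2 and mixed BASC organoids, was 2.82, 7.33 and 4.91 against 2.43, 7.26 and 5.68 CPM, with each set covering much the same range, though the change between organoids and tumoroids was not tested. Rpa2 had 0.30 (SE 0.23), Rpa3 0.39 (SE 0.34) and Rad51ap1 0.38 (SE 0.41), each with an adjusted p of 1. Mixed BASC tumoroids had by then an alveolar marker sum of 38270, 21880 and 34420 CPM, against 719 and 2666 in the mixed organoids, with Sftpc the most abundant of the 8 genes in these tumoroids and Sftpb in the organoids, and its part in the Bard1 levels was not tested.

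Cultures without a replicate are given as values. The BASC alveolar organoid was below the BASC bronchiolar organoid for 29 of 37 members and above it for 8. How many of all genes were lower in the same pair was not counted, so this does not set the members apart. Bard1 was 2.37 against 15.1 CPM (-2.65 on the log2 scale), Blm 6.15 against 13.2 (-1.09) and Brca1 5.77 against 11.2 (-0.94). On the other side were Mus81 at 23.8 against 16.5 CPM (0.53), Fan1 at 10.8 against 7.79 (0.46) and Fancd2 at 8.38 against 7.08 (0.24). All but Fancd2 had the sign they had in the replicated comparison of alveolar with BASC organoids, in which these 2 cultures also took part and Fancd2 had -0.15.

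The bronchiolar tumoroid had Krt14 at 1409 and Scgb1a1 at 2370 CPM. Of the other transplant tumoroids mixed BASC tumoroid 2 also had Scgb1a1, at 736 CPM. The bronchiolar one was above all 6 AT2 and mixed BASC tumoroids for 6 members, below all for 12 and within their range for 19. The share of all genes outside that range was not counted, so these counts do not set the members apart. Bard1 was 10.1 CPM in the bronchiolar tumoroid and 2.43 to 7.33 in the others (1.10), the highest Bard1 of any tumoroid. Fancc was 11.1 against 4.77 to 8.70 (0.72) and Fancl 8.14 against 5.28 to 7.02 (0.45). The largest deficits were Dna2 at 3.35 within 3.30 to 16.7 (-1.38), Fanci at 6.35 below 12.9 to 17.8 (-1.27) and Rad54b at 5.90 below 6.75 to 19.2 (-1.09). Its Mki67, 101 CPM, was below that of the other 6.

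The autochthonous tumoroid was above all 6 AT2 and mixed BASC tumoroids for 3 members, below all for 20 and within for 14. Here too the share of all genes was not counted, so the members are not set apart by these counts. Mus81 was 33.3 CPM against 12.7 to 23.9 (0.86), Fancl 7.72 against 5.28 to 7.02 (0.37) and Fan1 6.94 against 4.29 to 6.62 (0.33). Exo1 was 2.90 against 4.87 to 14.2 (-1.51), Eme1 2.21 against 2.63 to 6.73 (-1.27) and Rad54b 5.47 against 6.75 to 19.2 (-1.20). Its Mki67 was 88.9 CPM, below all 7 transplant tumoroids, and the part of Mki67 in these differences was not tested.

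Within groups of like cultures, the slopes of the members on Mki67 ran up to 1.41, and differences between slopes were not tested. The slope was fitted over all 18 cultures with 6 groups as terms, in log2 units per log2 unit of Mki67, and 31 of 37 members had a positive slope, with a median of 0.35 against 0.034 over all genes. edgeR called 0 members (6 at an unadjusted p under 0.05) and 0 of 20103 genes (0%; 1978 at an unadjusted p under 0.05), while DESeq2 called 3 members and 229 genes. The steepest were Rad54b at 1.41 (SE 0.35, adjusted p = 0.277), Rad51ap1 at 1.38 (SE 0.31, adjusted p = 0.256) and Bard1 at 0.99 (SE 0.54, adjusted p = 0.587). By DESeq2, Rad51ap1 (1.40) and Rad54b (1.43) passed, with adjusted p of 0.000181 and 0.00898, and by edgeR with 15 mitotic genes as the measure Rad51ap1 passed at 1.3 (adjusted p = 0.045; 0.000181 to 0.68 over its alternatives, and 0.00898 to 0.68 for Rad54b). Brca1 had 0.86 (SE 0.48, adjusted p = 0.608). Single cultures moved both: Bard1 had 0.48 without mixed BASC tumoroid 1 and 1.61 without the mixed BASC Ad-GFP organoid, and Brca1 had 0.50 without AT2 tumoroid 3. The flattest were Nbn at 0.00061 (SE 0.19), Fancc at -0.0028 (SE 0.31) and Rbbp8, the partner that starts resection with the sensor, at -0.042 (SE 0.21). The 15 mitotic genes had a median slope of 0.97.

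Other genes of DNA repair and of the cell cycle, none of them members, stood as follows. After transplant 14 of 15 mitotic genes were higher and 0 lower (Plk1 2.35, Cdc20 2.07), as were 24 of 29 replication genes (Rrm2 1.96, Mcm5 1.93). Of 33 further recombination and Fanconi genes 10 were higher and 2 lower, with Rmi2 at 2.05 against Rmi1 at -0.75 and Uimc1 at -0.49. Over all genes 10.8% were higher and 8.77% lower. Checkpoint genes had 3 of 17 higher and 1 lower (H2afx 1.42, Chek1 0.87, Atr -0.69). A list of end joining and 53BP1 genes, called end joining genes below, also holds Xrcc1, Parp1 and Lig3. It had 3 of 17 higher and 2 lower (Xrcc1 0.87, Parp1 0.79, Dclre1c -0.77, Rif1 -0.66). With Mki67 as a covariate 0 genes of these lists were called.

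In alveolar against tracheal organoids (31.4% of all genes lower, 29.5% higher) the further recombination and Fanconi genes had 16 of 33 lower and 0 higher (Fignl1 -1.56, Rad51b -1.25), and checkpoint genes 11 of 17 lower and 0 higher (H2afx -1.15, Wee1 -1.13). Mitotic genes had 12 of 15 lower (Cenpf -1.33, Top2a -1.22). Replication genes, a list that includes E2f genes beside Mcm and other genes, split, with 15 of 29 lower and 3 higher. The largest changes were in E2f genes, E2f7 at -2.75 and E2f8 at -1.45 against E2f2 at 2.30 and E2f1 at 1.29. End joining genes had 6 of 17 lower and 3 higher, with Rif1 at -0.96 and Trp53bp1 at -0.85 against Xrcc6 at 0.61 and Shld2 at 0.45. Against mixed and bronchiolar BASC organoids (27.6% and 25.5%) 14 of 33 further recombination genes were lower (Fignl1 -1.30, Ercc1 -1.25), 6 of 17 checkpoint genes (Wee1 -1.20, Atr -0.76), 8 of 15 mitotic and 15 of 29 replication genes. Of replication genes 2 were higher there, E2f2 at 2.02 and E2f1 at 0.98, and end joining genes had 4 of 17 lower and 3 higher. With Mki67 as a covariate, against tracheal organoids (12.7% of all genes lower, 15.9% higher), 2 of 33 further recombination genes were lower and 0 higher, 3 of 17 checkpoint genes lower and 0 higher, 3 of 17 end joining genes lower and 1 higher, 6 of 29 replication genes lower and 4 higher, and 0 of 15 mitotic genes lower and 1 higher. Against BASC organoids (18.1% and 19.4%) the counts in that order were 6 and 0, 4 and 0, 3 and 1, 12 and 4, and 3 and 2. In the comparisons of BASC with tracheal organoids, of viruses and of tumoroid origins, 0 genes of these lists were called.

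Some members share exons with a neighbor, and whether the counting used strand is not stated, so that their counts are uncertain to that extent. Of the 37 members 16 overlap another gene's exons. Fanca and Zfp276 share 920 bases, Fanci and Polg 921, Rad54l and Lrrc41 1184, and Rad54b and Fsbp 2068 on 1 strand. After transplant Zfp276 had -0.017 and Polg 0.10, neither called, beside Fanca at 1.76 and Fanci at 1.63. Fsbp had 0.87 (SE 0.43), not called, beside Rad54b at 1.61. Lrrc59, which shares 221 bases with Eme1, rose by 0.52, and Lrrc41 by 0.40. Efemp2, which shares 173 bases with Mus81, rose by 1.75 in alveolar against tracheal organoids, where Mus81 rose by 0.55, and its part was not tested. Neighbors of some members that fell there were lower too, with Lrrc41 at -0.41, Fsbp at -0.86, Vrk2 (462 bases with Fancl) at -1.18 Ankrd49 (154 bases with Mre11a) at -0.73 and 2010111I01Rik (185 bases with Fancc) at -1.31. Bard1, Brca1, Fan1, Exo1 and Rad51ap1 have no such overlap.

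Promoters were read from RefSeq (build GRCm38.p6) as the 250 bases before the start, and 28 members matched, with 30 promoters. Motifs were searched by exact letters on both strands. CCAAT, bound by NF-Y, was in 18 of 30 member promoters (60%) and in 33.8% of all 32851. TTTGAA, the core of the cell cycle genes homology region, was in 1 (3.33%, Bard1) against 16%. The E2F letters GGCGGGAA were in 1 (3.33%, Fancm) against 1.86% and TTTGGCGC in 0 against 0.417%. TGACGTCA, the cyclic AMP response element, was in 2 (6.67%, Brca2 and Rad51c) against 1.55%. A match describes letters and is neither a binding site nor a cause.

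Sequences are given for the members on which the lineage results turn, which moved in opposite directions: Bard1, Brca1 and Rad51ap1 lower in alveolar organoids and Fan1 higher. Each is printed 5′ to 3′ on the minus strand, with motif matches in capitals, and only for bases outside the gene as GENCODE places it. Bard1 (ENSMUSG00000026196, chr1:71027498-71103146) is shown for chr1:71103147-71103222, with TTTGAA. Brca1 (ENSMUSG00000017146, chr11:101488764-101551955) is shown for chr11:101551956-101552205, with CCAAT. Rad51ap1 (ENSMUSG00000030346, chr6:126923050-126939587) is shown for chr6:126939588-126939837, with 2 matches to CCAAT on the other strand. Fan1 (ENSMUSG00000033458, chr7:64346758-64374095) is shown for chr7:64374096-64374306, with 0 matches.
Bard1: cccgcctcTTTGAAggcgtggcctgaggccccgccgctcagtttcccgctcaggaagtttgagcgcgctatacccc
Brca1: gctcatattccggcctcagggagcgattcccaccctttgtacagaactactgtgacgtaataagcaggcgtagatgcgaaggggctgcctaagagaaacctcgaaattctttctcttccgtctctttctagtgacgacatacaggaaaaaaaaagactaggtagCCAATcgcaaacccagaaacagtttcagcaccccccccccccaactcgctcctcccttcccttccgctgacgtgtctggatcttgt
Rad51ap1: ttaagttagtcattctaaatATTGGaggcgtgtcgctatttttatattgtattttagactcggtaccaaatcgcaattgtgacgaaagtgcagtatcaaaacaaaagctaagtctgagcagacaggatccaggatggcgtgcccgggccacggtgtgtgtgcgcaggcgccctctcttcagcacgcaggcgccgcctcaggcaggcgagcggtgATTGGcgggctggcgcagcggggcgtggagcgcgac
Fan1: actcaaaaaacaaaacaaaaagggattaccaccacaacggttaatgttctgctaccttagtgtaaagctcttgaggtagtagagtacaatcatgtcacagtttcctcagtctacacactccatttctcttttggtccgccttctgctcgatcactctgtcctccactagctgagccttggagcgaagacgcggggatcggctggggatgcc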

How the data were processed

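RNA was measured in 18 cultures of mouse lung. The authors deposited per-gene RSEM tables holding the expected count, a fractional read count, and TPM, a share of transcripts corrected for their length. By the submitters' notes these came from Trimmomatic 0.39, STAR 2.6.1d and RSEM 1.3.2 on GRCm38. Strand use was not stated. Of 46603 gene IDs 46005 matched GENCODE vM21 and 598 did not, and all 37 members matched by symbol. The members, lists and tests were chosen with earlier results of these data known.

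Expected counts were rounded and fitted in edgeR 4.0.16 under R 4.3.3 (filterByExpr, TMM, quasi-likelihood test, Benjamini-Hochberg over all genes tested, called under 0.05). CPM per culture used TMM factors over all 18 cultures, and log2 CPM a prior count of 2. The score is the mean log2 CPM of the members, with no test. Mki67 entered as log2 CPM per culture. Scripts were tested on simulated data. Depth was 27772660 to 97191624 expected counts in organoids and 15327265 to 23355938 in tumoroids. Reads carried no molecular identifiers, so counting precision at this depth does not cover differences between cultures.

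Ad-Cre and Ad-GFP cultures were paired by cell population, since sorted cells of a population were divided between the viruses. Checked across genes, the partners' deviations from the mean of their virus group correlated at 0.669 for club, 0.812 for basal, 0.941 for AT2 and 0.313 for mixed BASC cells, which is given as a description.

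Alternatives were DESeq2 1.42.0, its size factors within edgeR, no filter, at least 10 counts in every culture, leaving out each culture, tissue origin as a block, alveolar cultures alone, tumoroids that share a title number summed, 15 mitotic genes in place of Mki67, Mki67 as an offset, organoids alone for the slope, no population block, and the score in TPM or without the 6 members of lowest CPM. Summing joined only tumoroids of the same origin. The bronchiolar tumoroid thus stayed apart from the mixed BASC tumoroids that carry its number.

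Named with full values were Brca1 and Mki67 always. Per comparison, the 3 members of largest change each way among those called were named, or the 3 of smallest p where fewer than 3 were called. With the covariate every member called was named, up to 6 by size. On the slope the 3 steepest and 3 flattest were named, and in single cultures the 3 largest differences each way at a mean of at least 5 CPM. Further members were named by role after their values were seen. Of the listed genes 2, Hrob and Claspn, did not match and were left out, as was the human transgene, which the tables do not carry.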

Additional observations from a re-analysis of the deposited data

Results flagged for a closer look

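In 93 groups of 4 to 10 cultures tested for a culture far from the rest, 6 were found, and chance alone gives about 1 in 20. Eme1 was 0.953 CPM in the AT2 Ad-Cre organoid and 1.74 to 1.80 in the other distal Ad-Cre organoids. The bronchiolar tumoroid was low among the transplant tumoroids for Fanca, at 10.1 CPM against 17.0 to 23.7, and for Fanci, at 6.35 against 12.9 to 17.8. Among tracheal organoids the club Ad-GFP culture, the shallowest organoid, was low for Brip1 (3.75 CPM against 5.46 to 5.86) and Xrcc2 (3.21 against 3.83 to 3.96). The basal Ad-GFP culture was high for Fan1, at 8.01 CPM against 7.39 to 7.47.

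Between groups, the Ad-Cre minus Ad-GFP difference of Brca1 was above 0 in both tracheal pairs and below 0 in both distal pairs. The means of the pairs were 0.499 apart in log2 CPM, and the difference was not tested. In the AT2 pair the partners also differed in sequencing lane.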

How the results depend on the processing

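Of 30 results on named genes that were called, 397 alternative values stayed on the same side of the threshold and in the same direction, and 54 lost the call. Calls lost outside leave-outs, counts that moved and signs that turned follow, and unless stated the cause was not tested.

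After transplant, members called went from 16 to 9 with no filter and 4 with tissue origin as a block, and genes from 3167 to 1538 with alveolar cultures only and 1180 with the block, both of which leave fewer cultures or degrees of freedom. Brca1 lost its call with no filter (adjusted p = 0.0682), tumoroids summed (0.0714) and the block (0.237), Fan1 with no filter (0.0558) and the block (0.104), and Eme1 with the block (0.0639). Leaving out a culture gave 6 to 17 members and 1973 to 3716 genes. With Mki67 as a covariate, genes went from 6 to 1 (alveolar only), 0 (at least 10 counts), 127 (DESeq2), 24 (no filter), 0 (origin block) and 11506 (Mki67 as an offset), the last with 20 members called where 0 were. The block and the offset for that comparison were chosen after seeing the data. Brca1 turned from -0.49 to 0.11 (alveolar only) and 0.017 (offset). Leave-outs gave 0 to 18 genes.

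For BASC against tracheal organoids, genes went from 272 to 1350 by DESeq2 and 1 to 3929 in leave-outs, with 0 to 1 members. Brca1, at -0.0085, turned to 0.0072 (size factors), 0.0051 (DESeq2), 0.020 (no filter) and 0.0039 (at least 10 counts), and was -0.13 to 0.061 in leave-outs. With the covariate, genes went from 11 to 62 (mitotic genes), 3 (size factors), 490 (DESeq2) and 47 (no filter), and 0 to 198 in leave-outs. For alveolar organoids with the covariate, members went from 5 to 10 (mitotic genes), 8 (DESeq2) and 3 (no filter), and 2 to 7 in leave-outs, against trachea, and against BASC organoids leave-outs gave 3 to 14 members and 3842 to 7845 genes. With no filter Fancc (adjusted p = 0.0755) and Mre11a (0.0528) lost their calls against trachea and Exo1 (0.0552) against BASC organoids.

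For the viruses, genes went from 0 to 5 by DESeq2, and without the replicate block they were 0, with 53 at an unadjusted p under 0.05 against 350 with it. For tumoroid origins, genes went from 0 to 7 by DESeq2, and Brca1 turned from 0.28 to -0.014 with tumoroids summed and was -0.40 to 0.67 in leave-outs. The mean score of AT2 minus mixed BASC tumoroids turned from 0.0070 to -0.10 in TPM.

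On the slope, members went from 0 to 1 (mitotic genes) and 3 (DESeq2), and genes from 0 to 95 (mitotic genes) and 229 (DESeq2), and 0 to 39 in leave-outs. Slopes near 0 turned sign: Nbn to -0.066 (mitotic genes; -0.047 to 0.070 in leave-outs), Fancc to 0.013 (size factors), 0.016 (at least 10 counts) and 0.14 (mitotic genes; -0.12 to 0.15 in leave-outs), and Rbbp8 to 0.18 (organoids only; -0.14 to 0.13 in leave-outs).

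Group sizes of 1 to 7 and depths down to 15327265 limit what could be detected. Fancf was the member with the fewest counts, at 17 to 218. Where a leave-out left 1 culture of an origin, edgeR pooled its spread with the other groups.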
